A study of Mus musculus with 7 samples.

Results

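The mouse microRNAs mmu-miR-3473a, mmu-miR-3473b, mmu-miR-3473e and mmu-miR-690 were examined across all 7 arrays of a study of CD4+ T cells. They are 4 of the 1881 miRNA names on the array, taken by name. They were chosen by their measured signal, which was steadily higher on the EAM arrays than on the LAD arrays. That difference is therefore given below as a description, and nothing is read from a test of it. The cells came from draining lymph nodes and were positively selected with a biotin-coupled antibody to CD4 and streptavidin beads. The EAM group (4 arrays) is a model of myocarditis and the LAD group (3 arrays) a model of myocardial infarction. The sample labels place EAM at day 6 and LAD at day 3 after induction, whereas the text on the series reverses the days. Strain, genotype, sex, age and pooling of mice are not given in the sources used here. No group of healthy mice was analysed here. The 7 arrays lay on 1 slide whose columns held 1 group each, so model, day and column cannot be told apart. Nothing states that the samples came from separate mice, so p-values measure only the spread between these samples, which may be technical. Values are from purified but bulk cells, in which fewer cells of a type and less RNA per cell cannot be told apart.

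MicroRNAs are short RNAs cut from a folded hairpin precursor and loaded into Argonaute proteins, where the seed, bases 2 to 8 of the mature strand, pairs with target messenger RNAs. The miR-3473 names form a rodent group whose best known letters also open the B2 element, a short repeat derived from a transfer RNA gene, present in very many copies in the mouse genome and transcribed by RNA polymerase III. Array probes of such names read short letters that other small RNAs can share, which makes the sequences part of the measurement.

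The mature sequences are shown first because the members overlap in letters more than their names tell. All 4 members were found in the RefSeq miRNA table (assembly GRCm38.p6), and the seed is in capitals.
miR-3473a: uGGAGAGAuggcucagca
miR-3473b: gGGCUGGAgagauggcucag
miR-3473e: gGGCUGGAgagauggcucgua
miR-690: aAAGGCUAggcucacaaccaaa
Only miR-3473b and miR-3473e have the same seed among the 4. The seed of miR-3473a is not theirs, since its mature strand begins further along the same letters. Of the other names on the array with a RefSeq sequence, miR-882 alone had the seed of miR-3473a, and its signal was detected on 1 of 7 arrays.

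The run shared with miR-3473b, in capitals below, covers 16 of the 18 bases of miR-3473a and 18 of the 21 bases of miR-3473e. miR-3473e departs from it in its last 3 bases.
miR-3473a: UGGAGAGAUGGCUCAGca
miR-3473b: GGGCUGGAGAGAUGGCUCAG
miR-3473e: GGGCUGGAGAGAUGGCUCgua
Mature miR-690 shares no run longer than 6 bases with miR-3473b, but its hairpin does. The hairpin of miR-690 holds an 18-base run of mature miR-3473b at bases 60 to 77, and mature miR-690 follows at bases 83 to 104, with 5 bases in between. The hairpin of miR-3473b holds the run at its 3′ end and a complement of it at its 5′ end. In both hairpins the run is in capitals.
Mir690: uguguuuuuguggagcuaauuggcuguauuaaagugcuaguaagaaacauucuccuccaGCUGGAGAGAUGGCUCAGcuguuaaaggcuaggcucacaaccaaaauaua
Mir3473b: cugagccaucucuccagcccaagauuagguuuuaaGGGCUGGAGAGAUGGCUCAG
In GRCm38.p6, Mir3473a lies at chrX:162874918-162874995 on the minus strand, within the span of the protein-coding gene Syap1. Mir3473b lies at chr10:41670739-41670793 on the plus strand within Ccdc162, and Mir3473e lies at chr5:31667231-31667340 on the minus strand within Rbks. Mir690 lies at chr16:28599935-28600043 on the minus strand within Fgf12. The 4 loci are thus on 4 different chromosomes, each inside the span of a gene, and exons and introns were not separated.

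The shared letters were also counted in promoters, because a short probe reads letters that other RNAs can hold. The motif TGGAGAGATGGCTCAG, the 16 bases common to miR-3473a and miR-3473b, was searched on both strands of the RefSeq promoter windows (GRCm38.p6), 300 bases each around a gene's start. It was present in 51 of 32851 windows, or 0.155%. On the given strand, it was present in 5 of 1005 hairpins of the RefSeq table, those of Mir3473a, Mir3473b, Mir3473f, Mir6413 and Mir690. Bases 9 to 20 of miR-690, GGCTCACAACCA, were present in 100 of the 32851 windows (0.304%) and in 16 of the 51 windows that hold the first motif (31.4%), always on the same strand as it. The longer piece AGGCTCACAACCAAA, which is the target of a miR-690 probe, was present in only 3 windows (0.00913%), 1 of them among the 51. A match describes letters in a window and is no evidence that an RNA is made there.

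The probes give the second set of letters needed to read the values. Each of the 4 members has 2 probes, each printed in 15 spots per array. Capitals mark the run shared with the shorter probe of miR-3473b.
miR-3473a, 15 bases: tgCTGAGCCATCTCT
miR-3473a, 16 bases: tgCTGAGCCATCTCTC
miR-3473b, 15 bases: CTGAGCCATCTCTCC
miR-3473b, 16 bases: CTGAGCCATCTCTCCa
miR-3473e, 15 bases: tacGAGCCATCTCTC
miR-3473e, 16 bases: tacGAGCCATCTCTCC
miR-690, 15 bases: tttggttgtgagcct
miR-690, 16 bases: tttggttgtgagccta
The complements of both miR-3473b probes are contained in mature miR-3473a as well as in miR-3473b, and in the same 5 hairpins as the motif, Mir690 among them. The miR-3473b value can therefore hold signal from miR-3473a, and how much was not tested. The probes of miR-3473a, miR-3473e and miR-690 were complementary over their whole length only to their own mature sequence in the RefSeq table. The miR-3473a and miR-3473e probes differ from the miR-3473b probes in only 2 or 3 bases at their 5′ end, outside the run in capitals, and in their length. Whether their values also hold signal from miR-3473b, the brighter name, was not tested. The miR-690 probes have at most 6 bases in a row in common with the miR-3473b probes, as the mature sequences have.

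Signal was analysed as log2 of the mean spot signal after background correction and quantile normalization between arrays, and all log2 values below are on this scale unless called unscaled or credited to the authors. In miR-3473a, whose probes read the 3′ end that miR-3473b lacks, the 4 EAM arrays gave 7.38, 7.09, 7.30 and 7.26 and the 3 LAD arrays gave 5.62, 5.93 and 5.05. The EAM arrays lay close together and every one of them was above every LAD array, with LAD array 3 the lowest. EAM averaged 7.26 ± 0.12 (SD, n = 4) and LAD averaged 5.53 ± 0.44 (SD, n = 3), a difference of 1.72 (SE 0.21). The corresponding 3.30-fold is the average of 2 probes, 1 of which was not well above background in LAD, so it is an imprecise figure. Each SE here and below comes from a fit with a single variance for both groups, so it can understate the wider spread of LAD.

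miR-3473b has been described as induced in macrophages by bacterial lipopolysaccharide. Its EAM arrays gave 11.42, 10.94, 10.999 and 10.86 and its LAD arrays gave 9.88, 9.19 and 8.93. Again no LAD array reached the lowest EAM array, and the nearest of them, LAD array 1, lay 0.98 below it. The group means were 11.06 ± 0.25 (SD, n = 4) and 9.33 ± 0.49 (SD, n = 3), which also differed by 1.72 (SE 0.25), or 3.30-fold. The position of LAD array 1 depended on the processing: it was 9.03 in the authors' deposited table.

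miR-3473e shares the seed of miR-3473b and differs from it at the 3′ end. Its EAM arrays gave 4.998, 5.10, 5.15 and 5.23 and its LAD arrays gave 4.20, 4.51 and 4.21. It was detected on all 4 EAM arrays and on none of the 3 LAD arrays, so it passed the filter on detection only through the group in which it was high. The means were 5.12 ± 0.10 (SD, n = 4) and 4.31 ± 0.17 (SD, n = 3), a difference of 0.81 (SE 0.13). Because its LAD signal was not well above background, its fold is only a lower bound: from its 16-base probe, with measured means of 5.80 in EAM and 4.60 in LAD and each LAD array held at no less than its lowest well-measured signal, it was at least 1.16-fold.

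miR-690 lies downstream of the shared run in its own hairpin and has been described in exosomes of macrophages. Its EAM arrays gave 10.08, 9.87, 9.73 and 9.76 and its LAD arrays gave 8.08, 8.48 and 6.97. The groups did not overlap, and the LAD arrays covered 1.51 log2 units against 0.35 among the EAM arrays. The means were 9.86 ± 0.16 (SD, n = 4) and 7.84 ± 0.78 (SD, n = 3), a difference of 2.02 (SE 0.33), or 4.04-fold.

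**Figure D1:**
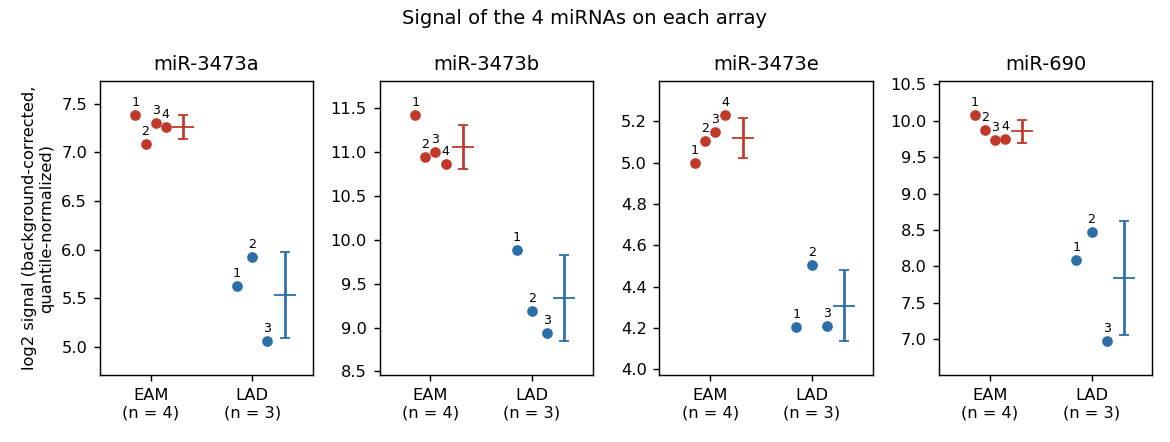
Log2 signal (vertical axis, own range in each panel) of the 4 members on each array, with EAM arrays in red and LAD arrays in blue, numbered by replicate, and the group mean with its SD beside them. In each panel all 4 EAM points lie above all 3 LAD points, and LAD array 3 is the lowest or within 0.01 of the lowest.

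For reference only, at an adjusted p of 0.05 the limma fit over the 423 tested miRNAs called all 4 members toward EAM, and 253 names in either direction (59.8%) 153 passed toward EAM (36.2%) and 100 toward LAD (23.6%). All 4 EAM values lay above all 3 LAD values in 34.0% of the 423, and all 3 LAD values above all 4 EAM values in 22.2%. The rule used this contrast, and miR-3473e entered the fit only through EAM, so nothing is read from these counts for the members. The median difference was 1.72 over the 4 members and 0.31 over all tested miRNAs.

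The members varied more among the LAD arrays than among the EAM arrays, which was not particular to them. Across all tested miRNAs, Pearson's r between arrays of a group was 0.902 to 0.967 in LAD and 0.993 to 0.998 in EAM. The share of all tested names with a larger LAD SD was not computed. The ratio of the LAD SD to the EAM SD was 3.54 for miR-3473a, 1.97 for miR-3473b, 1.77 for miR-3473e and 4.93 for miR-690. Taken against the EAM mean, LAD array 3 was at -2.20 in miR-3473a, -2.12 in miR-3473b and -2.89 in miR-690. LAD array 2 was nearest to the EAM mean in miR-3473a, miR-3473e and miR-690, while LAD array 1 was nearest in miR-3473b. On these 3 LAD arrays the median of all tested miRNAs was itself at -0.37, -0.05 and -0.47 from the EAM mean, a shift the member differences include.

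Probe by probe, all 8 member probes had every EAM array above every LAD array, with differences from 0.43 to 2.05. The members were chosen for such a separation, which 34.0% of the 423 tested names also had, and the share over all probes was not computed. The 15-base probe of miR-3473e, 1 of the 8, had no spot well above background on any array. The count is therefore a description only. The SD over the replicate spots of a member probe on 1 array was between 0.0205 and 0.343, and no spot was saturated. The probes of a member did not all carry the same weight. For miR-3473a the 15-base probe differed by 1.39 and the 16-base probe by 2.05. None of the spots of the 15-base probe was well above background on any LAD array, and all were on each EAM array. That probe's difference is thus a bound, at least 1.32-fold. Of the spots of the 16-base probe, 46.7% were well above background on LAD array 3 and all on every other array.

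For miR-3473b both probes were well above background in all spots of all 7 arrays, and they differed by 1.85 (15 bases) and 1.59 (16 bases). The 2 probes of miR-690 were also above background in every spot and differed by 2.03 and 2.00, the closest match between the probes of a member. miR-3473e rests on its 16-base probe, which was above background in all spots of the 4 EAM arrays and in none of the LAD arrays and differed by 1.20. Its 15-base probe was above background in no spot of any array, on either side, and its difference of 0.43 compares signals that were not well above background.

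The other names of the family on the array were miR-3473c, miR-3473d, miR-3473f and miR-3473g, which the rule did not choose. miR-3473f, whose 3′ end carries 11 bases of the shared run, was higher in EAM, at 5.81 ± 0.12 (SD, n = 4) against 5.30 ± 0.35 (SD, n = 3), a difference of 0.51 with a limma adjusted p of 0.0428. All 4 of its probes had no spot well above background on LAD array 3 and at most 14.3% on LAD array 1, so the LAD side of this difference is not well measured. miR-3473f was detected on 4 EAM arrays and 2 LAD arrays, so it entered the fit only through EAM, and its call is no support for a difference. The call was lost with no filter on detection (limma adjusted p 0.0615) and when any array other than LAD array 2 was left out. Its difference was -0.092 (adjusted p 0.783) when arrays were scaled to the 75th percentile of the detected probes. miR-3473c, whose letters near the 5′ end are complementary to part of the run, was lower in EAM, at 4.93 ± 0.09 (SD, n = 4) against 5.40 ± 0.15 (SD, n = 3), a difference of -0.47 with a limma adjusted p of 0.0204. At most 26.7% of the spots of a miR-3473c probe were well above background on any array. Its call too was lost when any array other than LAD array 2 was left out (limma adjusted p 0.0509 to 0.061) and with median centring (0.0522), and without scaling its difference was 0.23. miR-3473d was detected on no array and was not tested.

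miR-3473g has the name of the family but only 6 bases in a row in common with miR-3473b. It gave 9.23, 8.78, 9.18 and 8.95 on the EAM arrays and 9.47, 9.21 and 8.87 on the LAD arrays, so the groups overlapped. The means were 9.04 ± 0.21 (SD, n = 4) and 9.18 ± 0.30 (SD, n = 3), and the difference of -0.14 did not pass, with a limma adjusted p of 0.504. Its direction turned with the scaling, from -0.21 with the 75th percentile of the detected probes to 1.71 with none.

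**Figure D2:**
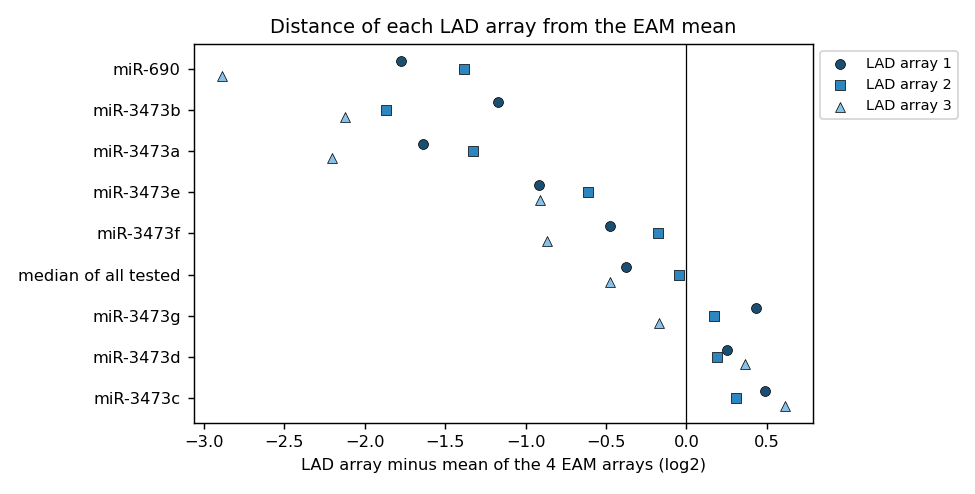
Log2 signal of each LAD array minus the mean of the 4 EAM arrays (horizontal axis) for the 4 members, the other 4 names of the family and the median of all 423 tested miRNAs. The members lie between -0.61 and -2.89, miR-3473c and miR-3473d lie above 0 on every LAD array on this scale, and miR-3473g lies on both sides.

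The LAD arrays were dimmer before any scaling in the probes detected on all arrays, which bears on every level above. The 75th percentile of these 303 probes was 799 to 1071 intensity units on the EAM arrays and 193, 501 and 124 on the LAD arrays, 3.99-fold apart as means of logs. Over all spots that are not controls, the 75th percentile of uncorrected signal was closer between groups, at 53.8 to 61.5 in EAM and 50.4 to 53.7 in LAD. Unscaled total signal of miR-3473a, in the scanner's intensity units, was 173, 133, 132 and 156 in EAM and 7.56, 16.5 and 3.76 in LAD. For miR-3473b it was 2139, 1639, 1394 and 1648 against 98.5, 196 and 44.4, and for miR-690 it was 844, 790, 576 and 790 against 37.8, 115 and 15.7.

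Computed the same way as the percentile, from means of logs, the unscaled fold was 19.0 for miR-3473a, 17.7 for miR-3473b and 18.1 for miR-690. The fold of miR-3473a is imprecise, since 1 of its 2 probes had no spot well above background on any LAD array. The unscaled fold of miR-3473g was 4.38, close to that of the percentile of probes detected on all arrays. On each of the 3 LAD arrays the 3 members had fallen further from the EAM mean than the array's percentile had: on LAD array 2, the brightest of the 3, miR-690 was at -2.69 and the percentile at -0.87 (log2). The members were chosen for higher signal on the EAM arrays, which favours such a fall. The share of all names that fell further than the percentile was not computed. miR-3473e was listed at the scanner's floor on all 3 LAD arrays and between 11.9 and 14.0 on the EAM arrays, and no unscaled fold is given for it. What part of the members' difference goes with the dimmer LAD arrays was not tested.

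**Figure D3:**
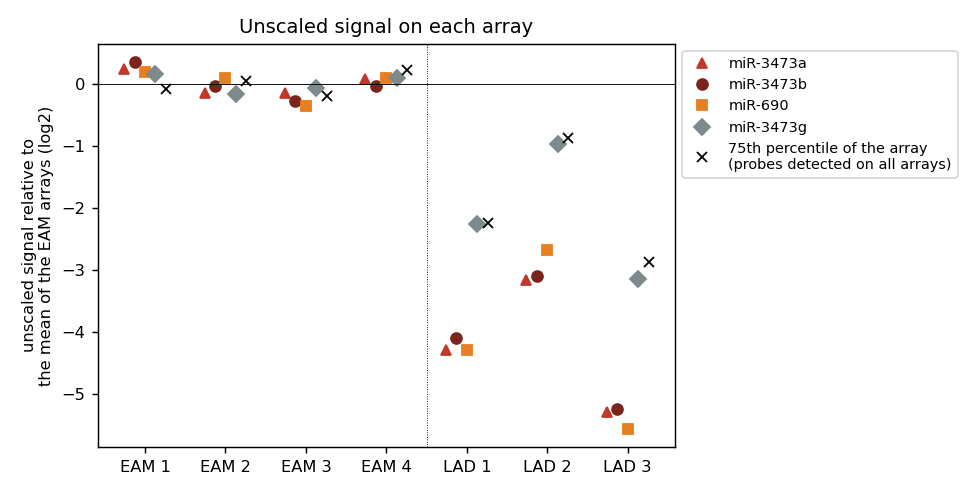
Unscaled signal on each array relative to the mean of the 4 EAM arrays (vertical axis, log2 scale) for miR-3473a, miR-3473b, miR-690, miR-3473g and the 75th percentile of the probes detected on all arrays. On the LAD arrays miR-3473g lies near the percentile, from -0.98 to -3.15 against -0.87 to -2.88, and the 3 members lie between -2.69 and -5.56.

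The size of the members' difference depended on the processing, and all 121 alternative values of the 4 differences and of their median had EAM higher. The members were chosen for that direction, so the count is no support for it. With groups that do not overlap, leaving out 1 array could not turn the direction, and some other settings left a value unchanged. With arrays scaled to the 75th percentile of the detected probes, the differences were 2.05 for miR-3473a, 1.80 for miR-3473b, 1.38 for miR-3473e and 1.80 for miR-690. Under that scaling the median of all tested miRNAs was -0.04, and 81 miRNAs passed toward EAM against 116 toward LAD, where the main scaling gave 153 against 100. Without scaling, 299 of the 301 miRNAs that passed were higher in EAM, so nearly all calls on that scale ran toward EAM. In the authors' deposited table the differences of the group means were 1.30 for miR-3473a, 2.11 for miR-3473b, 0.42 for miR-3473e and 2.03 for miR-690. That table was closely matched by signal without background correction, quantile normalized with the control spots kept: 98.8% of its values lay within 0.02 of signal processed so. With control spots kept but the background corrected, the miR-3473b difference was 2.17, against 1.72 with control spots left out.

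**Figure D4:**
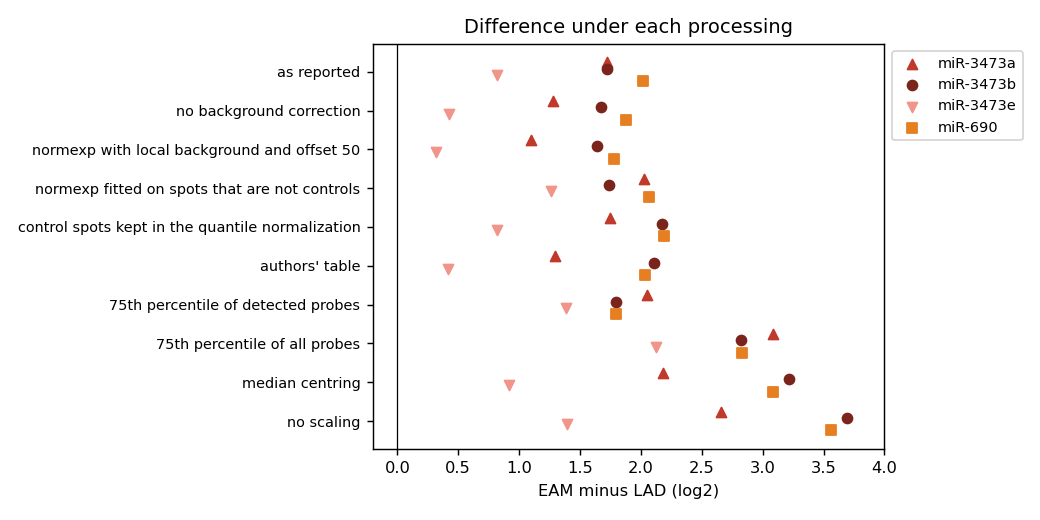
Difference between the EAM mean and the LAD mean (horizontal axis, log2) of the 4 members under 10 ways of processing. They are the reported one, 2 other background corrections, normexp without control spots, control spots kept, the authors' table and 4 other scalings. All points lie above 0, miR-3473e is lowest in each of these rows, and the absence of scaling gives miR-3473b its highest value shown, 3.70.

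Likeness among the members was measured too. Their patterns over the 7 arrays were compared after subtracting each name's own mean, by the root mean square distance. Among the members, miR-3473a and miR-690 were nearest (0.258), then miR-3473a and miR-3473b (0.298), and miR-3473e and miR-690 were farthest (0.715). The nearest tested name to miR-690 was miR-3473a. Nearest of all tested names to the mean pattern of the 4 members was miR-151-5p, at 0.146, whose difference was 1.44. Next came miR-219a-5p at 0.193, with a difference of 1.49, and miR-378d at 0.204, with a difference of 1.24. These names were picked for their likeness, so their differences are not tested. The members were chosen for a pattern of this kind, so their closeness to each other is not a finding. For miR-3473e alone the nearest were miR-200a-3p (0.0679), miR-7216-5p (0.0693) and miR-101b-3p (0.0822).

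Names that are rich in G and C or resemble fragments of other RNAs were listed for comparison, since the members share letters with repeats. Of 13 such names, 8 were on the array and 6 were tested: 1 passed toward EAM, 2 toward LAD and 3 did not pass, where 36.2% and 23.6% of all tested names passed in these directions. The median difference was -0.03 against 0.31 over all tested. miR-709 averaged 9.76 ± 0.24 (SD, n = 4) in EAM against 9.81 ± 0.25 (SD, n = 3) in LAD (limma adjusted p 0.813). Its difference depended on the scaling: 1.12 (limma adjusted p 0.016) with the percentile of all probes, 1.53 (0.0024) with median centring and 2.01 (0.00393) without scaling. With the 75th percentile of the detected probes it was 0.09 (0.791), and in the authors' deposited values 0.15 (0.358). miR-5100 was lower in EAM by 0.42 (limma adjusted p 0.0278), but this turned to 0.09 (adjusted p 0.491) in the authors' deposited values and to 1.90 without scaling. The other 2 that passed, miR-5126 (-0.62, limma adjusted p 0.044) and miR-1895 (0.61, 0.0486), also did not pass in the authors' deposited values, where the limma adjusted p was 0.0552 and 0.054.

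Of 10 names known to be induced by inflammatory stimulation, 5 were tested, of which 2 passed toward EAM, none toward LAD and 3 did not pass, and their median difference was 0.57. With 36.2% of all tested names passing toward EAM, this share is near the background. miR-155-5p, which rises when lymphocytes and macrophages are activated, was higher in EAM, at 9.62 ± 0.03 (SD, n = 4) against 8.51 ± 0.80 (SD, n = 3) (limma adjusted p 0.0264). miR-146a-5p, an inducible brake on NF-kB signalling, was 3.68-fold higher in EAM, at 9.21 ± 0.07 (SD, n = 4) against 7.33 ± 1.25 (SD, n = 3), with a limma adjusted p of 0.0204. miR-146b-5p, a close relative of miR-146a-5p, was at 5.08 ± 0.18 (SD, n = 4) against 5.47 ± 0.57 (SD, n = 3), a difference of -0.39 (limma adjusted p 0.214), and with the 75th percentile of the detected probes its difference was -1.87 (0.0115). The LAD arrays of miR-155-5p and miR-146a-5p were uneven: LAD array 1 was at 9.43 and 8.75, and LAD array 3 at 7.93 and 6.84.

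Markers of lymphocytes were present on all arrays: 6 of 6 were detected on all 7. The log2 of their summed signal was 15.7 to 15.9 in EAM and 15.4 to 15.6 in LAD. Of these 6, 3 passed toward EAM, 1 toward LAD and 2 did not pass, with a median difference of 0.47. miR-142a-3p, abundant in blood cells, was at 15.25 ± 0.10 (SD, n = 4) and 14.89 ± 0.05 (SD, n = 3), and miR-150-5p, a marker of mature lymphocytes, at 12.47 ± 0.05 (SD, n = 4) and 11.06 ± 1.20 (SD, n = 3). The marker that passed toward LAD was miR-181a-5p, named here after its values were seen and known to be high in immature T cells. It was at 7.51, 7.90, 7.62 and 7.67 on the EAM arrays and 9.05, 11.97 and 11.55 on the LAD arrays, a difference of -3.18 (limma adjusted p 0.0118). It did not pass with median centring (-1.43, 0.119) or without scaling (-0.95, 0.328). Myeloid cells were marked by 2 names, of which miR-223-3p, the defining myeloid miRNA, was lower in EAM, at 6.59 ± 0.16 (SD, n = 4) against 8.23 ± 0.83 (SD, n = 3), with a limma adjusted p of 0.0127. The other, miR-223-5p, was detected on no array, and the log2 of the summed signal of both was 6.65 to 6.93 in EAM and 7.81 to 9.23 in LAD. The miR-223-3p difference was -0.49 with median centring (limma adjusted p 0.0903) and -0.015 without scaling (0.965), so the call was lost on both scales. Of 6 epithelial names 5 were tested, all of which entered only through EAM, being detected on 4 of 4 EAM arrays and on 0 or 1 of 3 LAD arrays. That 4 of them passed toward EAM, where 36.2% of all tested names did, is therefore no support for a difference. The log2 of the summed signal of the 6 was 7.61 to 7.93 in EAM and 7.04 to 7.35 in LAD. On the scale used here the summed signal of the lymphocyte and epithelial markers was higher in EAM and that of the myeloid markers lower, without overlap of the arrays. Of the 423 tested names, 34.0% lay without overlap toward EAM and 22.2% toward LAD. Most of the lymphocyte sum is miR-142a-3p, while miR-181a-5p ran the other way. What part these markers had in the members' difference was not tested. All 4 heart muscle markers and all 4 markers of stroma were detected on no array. Neither of the 2 endothelial markers was tested, and 1 of 3 red cell markers was, which did not pass.

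Across the whole array, 445 to 471 miRNAs were detected on the EAM arrays and 311 to 380 on the LAD arrays. Pearson's r between arrays of a group, across miRNAs, was 0.993 to 0.998 in EAM and 0.902 to 0.967 in LAD. The number of arrays, 4 and 3, limits the precision of every value.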

How the data were processed

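Per the labels' protocols, each array received 100 ng of total RNA, carrying Cy3 on the 3′ end. The 7 one-colour Agilent arrays on 1 slide were scanned and read with version 10.7.3.1 of Agilent Feature Extraction, per the file headers. The deposited scanner files hold intensity per spot, total gene signal per miRNA as intensity, and other columns of 0 or 1 marks for detection, saturation and spot quality, none scaled between arrays. The value table deposited by the authors holds log2 values per miRNA name, and the medians of its columns were 5.55 to 5.56. Per the submitters' processing notes RMA was named, with no version or role, so the scale and the centring of that table were inferred from its values.

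Each array held 58594 spots, 56430 of them not controls, for 4415 probes. Mean spot signal was corrected with limma's normexp model (foreground only, no offset, all spots), quantile normalized over spots that are not controls, and put on the log2 scale. The median of replicate spots was taken without outlier spots, followed by median polish over probes. The 423 names detected on all EAM arrays or on all LAD arrays were tested, with limma 3.58.1 (lmFit and eBayes, no covariate) in R 4.3.3 with version 1.17.8 of data.table, and p-values were Benjamini-Hochberg adjusted over all tested names at a threshold of 0.05. A single variance per miRNA serves both groups in this fit. Where LAD, the smaller group, varied more than EAM, the SE and the adjusted p of a difference can therefore be too small. The code was tested on simulated data. Depth per sample is not defined for arrays.

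The members and lists were chosen with earlier results of these data known, and no result here is independent of them. The names given were the 4 members, the other miR-3473 names, names sharing a seed or a run of at least 12 bases with a member, the 3 nearest in pattern, and members of the comparison and marker lists. Alternatives tried were median centring, scaling by the 75th percentile (detected or all probes), no scaling, omitted background correction, normexp using the local background with offset 50, total gene signal, other summaries over spots and probes, each probe alone, the authors' table, other filters, array weights, unequal variances, a replicate block and leaving out each array. Keeping control spots in the quantile normalization and fitting normexp without control spots were added after seeing the data. Nothing states that the replicate numbers pair the arrays, so they were not taken as pairs. Deviations of same-numbered arrays of the groups had correlations of 0.20, -0.16 and -0.19, which cannot settle whether they are pairs.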

Additional observations from a re-analysis of the deposited data

Results flagged for a closer look

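In 29 groups of 4 EAM values checked for a sample far from the others, 1 stood out, where chance gives about 1 in 20. In miR-142a-3p, EAM array 2 was at 15.40 and the other 3 EAM arrays at 15.18 to 15.21, so the gap to the nearest took 0.866 of the group's range, above Dixon's critical value for 4 samples. None of the 4 members stood out in this way. The LAD group, with 3 arrays, is too small for this check.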

How the results depend on the processing

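All 121 alternative values of the members and of their median had EAM higher. The members were chosen for that direction, so only the sizes are read, and they moved as follows. Leaving out 1 array at a time gave 1.48 to 1.92 for miR-3473a, 1.52 to 2.00 for miR-3473b, 0.76 to 0.91 for miR-3473e, 1.58 to 2.33 for miR-690 and 1.501 to 1.88 for the median of the 4. The count of 253 calls became 135 with names detected on all 7 arrays, 445 with no filter, 75 (without EAM array 4) to 344 (without LAD array 2) with 1 array left out, and 0 with an unmoderated test of unequal variances, where 120 had an unadjusted p under 0.05.

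No background correction gave 1.28 for miR-3473a and 0.42 for miR-3473e, and local background with an offset of 50 gave 1.09, 0.31 and a median of 1.37. The 75th percentile of detected probes gave 2.05 for miR-3473a and 1.38 for miR-3473e, and the percentile of all probes gave 3.08, 2.83, 2.12 and 2.83 for miR-3473a, b, e and miR-690 with a median of 2.83. Median centring gave 2.18, 3.22 and 3.08 for miR-3473a, miR-3473b and miR-690 with a median of 2.63, and no scaling gave 2.66, 3.70, 1.40 and 3.56 with a median of 3.11. Total gene signal, whose floor sets the LAD side of miR-3473e, gave 2.46 for miR-3473a, 6.35 for miR-3473e and a median of 2.22. The authors' deposited table gave 1.30, 2.11 and 0.42 for miR-3473a, b and e. Keeping control spots gave 2.17 for miR-3473b, array weights gave 1.22 for miR-3473b in a fit stopped before it converged, and fitting normexp without control spots gave 2.03 for miR-3473a and 1.26 for miR-3473e. The array weights were 2.34, 0.065 and 0.28 for LAD arrays 1, 2 and 3, so LAD array 1 set most of the LAD side of that fit. Single probes gave 1.39 and 2.05 for miR-3473a and 0.43 and 1.20 for miR-3473e. The cause of these moves was not tested.

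Turned directions were 0.23 for miR-3473c without scaling, -0.092 for miR-3473f with the percentile of detected probes, and for miR-3473g 0.82 (percentile of all probes), 1.24 (median centring), 1.71 (no scaling), 0.24 (the authors' deposited table) and 0.25 (control spots kept). The fit with the replicate number as a block, over replicates 1 to 3, called 0 of 423 (limma, lowest adjusted p 0.0873), with 180 at an unadjusted p under 0.05, and the median of the members was 1.75. No member was called in that fit. Whether the numbers pair the arrays is not known, so it cannot settle whether the effect is weaker. Signal near background limits miR-3473c, miR-3473d, miR-3473e and miR-3473f, and the 3 LAD arrays limit all values.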
